A study of Mus musculus with 4 samples.

Results

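The IGF system genes on the array were the ligand Igf1, the receptor Igf1r and the binding proteins Igfbp2, Igfbp3, Igfbp4, Igfbp5, Igfbp6 and Igfbp7, found by their symbols in the scanner files. These 8 of 31704 genes were covered by 13 of 39421 probes, of which 5 probes were for Igf1, 2 for Igfbp2 and 1 for each other gene. They were measured in mouse embryonic fibroblasts (MEFs), connective tissue cells grown from embryos, in a study that looked for p53-dependent genes among those induced by doxorubicin, a topoisomerase II poison that breaks DNA. The 4 conditions were p53+/+ (WT) MEFs without doxorubicin, WT MEFs with doxorubicin, p53-/- MEFs without doxorubicin and p53-/- MEFs with doxorubicin, and each condition had 1 one-color Agilent array. The labels give no dose or time of treatment for the arrays and do not say from how many cultures or embryos an RNA came. Culture, place on the slide and condition therefore cannot be told apart, no difference below has a replicate check, and no p-value was calculated.

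Insulin-like growth factors are secreted ligands that activate the tyrosine kinase receptor IGF1R, which signals through IRS adaptors, PI3K and AKT to support growth and survival. IGF binding proteins (IGFBPs) hold the ligands in the medium or on the matrix, and can block or prolong their action. Fibroblasts make both ligands and several IGFBPs, secreted IGFBPs are known products of senescent fibroblasts, and p53 has been linked to repression of the receptor gene and to induction of IGFBP3 in other cells.

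The label of p53-/- was checked first. Trp53 had signals of 1228 (untreated WT), 3442 (treated WT), 442.4 (untreated p53-/-) and 543.4 (treated p53-/-), and the place of this probe relative to the deletion was not analysed here. The p53 target Cdkn1a, an inhibitor of cyclin-dependent kinases, had signals of 28619, 105995, 976.7 and 5912 in the same order. All 10 fibroblast markers looked at were well above background on all 4 arrays, and their summed signal ranged from 1241720 to 1735815. Of these markers, Lum, Pdgfra, Pdgfrb and Dcn were at least 2-fold lower with doxorubicin in WT MEFs (log2 ratios of -4.81, -3.36, -2.44 and -1.30), and Lum and Pdgfrb in p53-/- MEFs (-2.34 and -1.73). Markers of other cell types were partly present. Per array, 5 to 7 of 7 leukocyte markers were above background (summed signals of 33239 to 41624), 2 to 4 of 5 endothelial markers (5545 to 8159), 2 to 3 of 4 epithelial markers (9873 to 42823), 1 of 4 hepatocyte markers (276.1 to 950.9) and 1 to 2 of 4 skeletal muscle markers (654.8 to 1730). Ptprc, Csf1r, Itgam, Cd14, Cd52, Kdr, Pecam1, Krt8, Krt18, Afp and Des were above background on all 4 arrays. Cdh5, Epcam, Alb, Apoa1, Ttr, Myod1 and Myf5 were above background on none. Ptprc, at 65.3, 66.5, 71.6 and 104.3, was nevertheless below the brightest negative control spot of each array (108.3, 77.5, 250.1 and 119.7). Pecam1 was also below it in untreated p53-/- MEFs, at 167.5. The leukocyte marker Cd14 went from 513.4 to 6020 with doxorubicin in WT MEFs (log2 ratio of 3.74), against 0.62 in p53-/- MEFs. The endothelial marker Vwf went from 68.9 to 511.8 in WT MEFs (3.08) and from 51.6 to 519.3 in p53-/- MEFs. No ratio was formed in p53-/- MEFs because 51.6 was not well above background. The 68.9 was less than the brightest negative control spot of its array (108.3). Kdr had 0.20 (WT) and -0.35 (p53-/-) at its brightest probe, but 2.68 and 1.70 at its other probe. The keratin gene Krt18 was highest in treated p53-/- MEFs, at 40299, with a log2 ratio of 1.91 to untreated p53-/- MEFs. The part of such shifts in the values below was not tested.

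All 8 genes were well above background on all 4 arrays. With doxorubicin, Igf1r, Igfbp4 and Igfbp5 fell at least 2-fold in both genotypes, and Igfbp6 and, at its brightest probe, Igf1 rose at least 2-fold in p53-/- MEFs. In WT MEFs, 0 of 8 genes rose, against 11.0% of all 17513 genes measured there, and 3 of 8 fell, against 10.4%. In p53-/- MEFs, 2 of 8 rose, against 9.24% of 16950 genes, and 3 of 8 fell, against 6.89%. The median log2 ratio of the 8 genes was -0.40 in WT and -0.43 in p53-/- MEFs, and that of all measured genes was 0.01 and 0.00. A fall in both genotypes was seen for 548 of 16513 genes, or 3.32%, and for 3 of the 8. In RNA from a whole culture, fewer cells of a type and less RNA per cell cannot be told apart.

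A signal is the background-subtracted intensity of a spot. A ratio compares signals after each was divided by the 75th percentile of its array (2075, 1819, 1881 and 2422 for untreated WT, treated WT, untreated p53-/- and treated p53-/- MEFs), so it can differ from the ratio of the printed signals. The scanner's error model gave an SD of 0.20 for a log2 ratio of most members, and repeat spots of other probes on the same arrays gave an SD of 0.08. Both cover spots on an array and not separate cultures. Scaling to array medians instead shifted every doxorubicin ratio down, so that the median gene stood at -0.27 for WT and at -0.30 for p53-/- MEFs. The shares of all genes past 2-fold were then 7.54% higher and 15.9% lower in WT MEFs, and 5.63% and 12.4% in p53-/- MEFs, with 3 and 5 members past 2-fold as before.

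**Figure D1:**
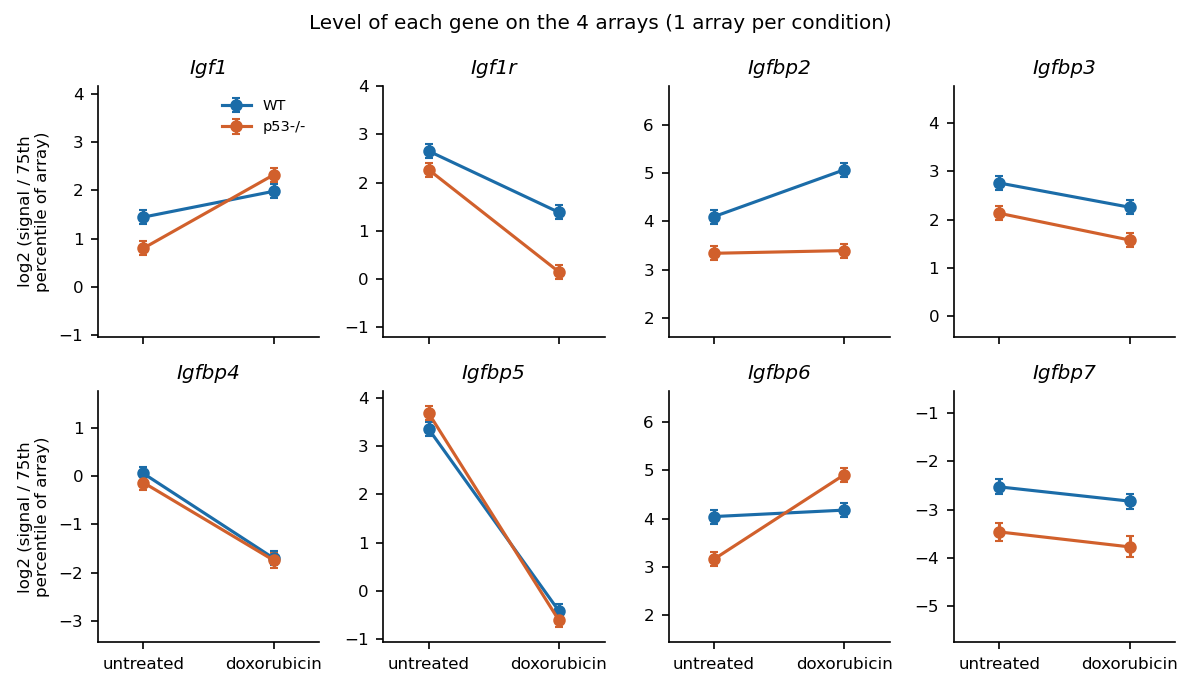
Level of each IGF system gene as log2 of the signal over the 75th percentile of its array, in WT (blue) and p53-/- (orange) MEFs without and with doxorubicin, 1 array per point, with bars for the SD of the error model; each panel spans the same log2 range but has its own centre. Igfbp5, Igfbp4 and Igf1r slope down in both genotypes, while Igfbp6 and, at its brightest probe, Igf1 slope up most in p53-/- MEFs. With array medians the small upward slopes of Igfbp6 in WT (0.13) and Igfbp2 in p53-/- MEFs (0.05) turn to -0.14 and -0.24.

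Igf1, the ligand of the receptor, was higher with doxorubicin in p53-/- MEFs at some of its probes and not at others. The probes are shown by their first 30 of 60 bases because they read different places of the gene, on the plus strand of chromosome 10 (mm9). The first 4 lie on 1 RefSeq transcript, named by the position of their first base in it, and the last lies on another. Capitals mark the bases that the printed parts of the first pair share.
Igf1 position 889, chr10:87393561-87393620: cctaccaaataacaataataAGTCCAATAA
Igf1 position 909, chr10:87393581-87393640: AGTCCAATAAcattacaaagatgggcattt
Igf1 position 3252, chr10:87395924-87395983: agaaatgtaaatggaataagaggtcagctg
Igf1 position 6909, chr10:87399581-87399640: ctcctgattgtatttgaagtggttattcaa
Igf1 on the other transcript, position 1027, chr10:87378456-87378515: aaccattaaaaacatgccaccaagaccttc

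The brightest probe, at position 909, stood for Igf1 in all counts. Its signals were 5640 in untreated WT, 7160 in treated WT, 3269 in untreated p53-/- and 12075 in treated p53-/- MEFs. Untreated p53-/- MEFs were thus the lowest and treated p53-/- MEFs the highest of the 4, and each step in that order was larger than 0.17, which is 2 SDs of a repeat-spot ratio. The step from treated WT to treated p53-/- MEFs, 0.34, was within 2 SDs of the error model (SD of 0.20). The log2 ratio of doxorubicin over untreated was 0.53 (1.45-fold) in WT and 1.52 (2.87-fold) in p53-/- MEFs, the latter exceeded by 708 of 16950 genes. The overlapping probe at position 889 had signals of 4530, 5833, 2557 and 10033, with log2 ratios of 0.55 and 1.61. These probes share most of their bases and are not independent measurements.

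Farther along the same transcript, the ratios were near 0 or negative. At position 3252 the signals were 526.7, 447.5, 427.0 and 511.2, and the log2 ratios were -0.05 in WT and -0.10 in p53-/- MEFs. At position 6909 they were 4197, 2181, 2289 and 2707, with log2 ratios of -0.75 and -0.12. This last probe was highest in untreated WT MEFs, where the brightest probe was not. The probe on the other transcript had signals of 2467, 2370, 2582 and 4057 and log2 ratios of 0.13 and 0.29, so it was also highest in treated p53-/- MEFs.

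The ratio at position 909 exceeded that at position 6909 by 1.29 on the log2 scale (2.44-fold) in WT and by 1.64 (3.12-fold) in p53-/- MEFs, a comparison chosen after the values were seen. Between the untreated genotypes, the same pair of probes gave nearly the same ratio of p53-/- over WT, with a log2 difference of 0.09. Of the 10 pairs of Igf1 probes, 2 were at least 2-fold apart in their doxorubicin ratio in WT and 6 in p53-/- MEFs. Over all 4692 pairs of probes of 1 gene, 5.35% were so in WT and 5.33% in p53-/- MEFs. Every Igf1 pair past 2-fold held the probe at position 889 or 909. These probes overlap, so the Igf1 pairs are not independent. When the mean of the 5 probes stood for Igf1, its log2 ratio was 0.08 in WT and 0.64 in p53-/- MEFs, below 2-fold. The rise of Igf1 in p53-/- MEFs therefore rests on the pair of probes at positions 889 and 909.

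**Figure D2:**
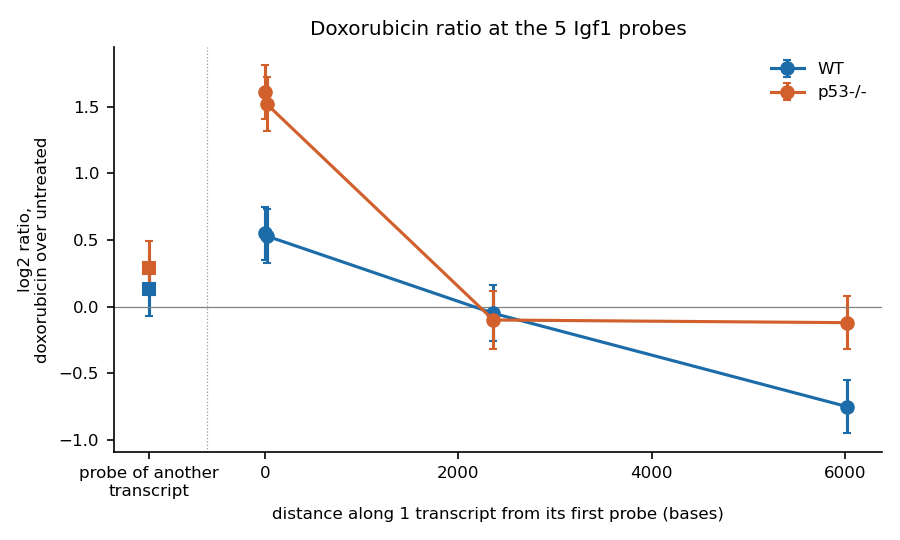
Log2 ratio of doxorubicin over untreated at the 5 Igf1 probes in WT (blue) and p53-/- (orange) MEFs, against the distance in bases along 1 transcript from its first probe; squares at the left are the probe of another transcript, and bars are the SD of the error model. In p53-/- MEFs the ratio is 1.61 and 1.52 at the first probes and -0.12 at the last, and in WT MEFs 0.55 and 0.53 against -0.75.

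Igf1r encodes the receptor tyrosine kinase for both IGF ligands. Its probe, at chr7:75378461-75378520 on the plus strand (mm9), had signals of 13055 in untreated WT, 4740 in treated WT, 9039 in untreated p53-/- and 2700 in treated p53-/- MEFs. The treated arrays were below both untreated arrays, with treated p53-/- MEFs the lowest. The log2 ratio was -1.27 (2.41-fold lower) in WT and -2.11 (4.31-fold lower) in p53-/- MEFs. In p53-/- MEFs, 122 of 16950 genes had a lower ratio, and in WT MEFs 1192 of 17513. The receptor was also 2.34-fold lower in p53-/- than in WT MEFs when both had been treated (log2 ratio of -1.23), against -0.39 when both were untreated.

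Igfbp5, a binding protein that also attaches to extracellular matrix, had the lowest doxorubicin ratio of all 16950 genes measured in p53-/- MEFs. Its probe, at chr1:72904829-72904888 on the minus strand (mm9), had signals of 21121 in untreated WT, 1361 in treated WT, 23989 in untreated p53-/- and 1587 in treated p53-/- MEFs. The treated arrays lay far below the untreated ones, and within a treatment the genotypes were within 0.33 of each other on the log2 scale. The log2 ratio was -3.77 (13.6-fold lower) in WT and -4.28 (19.5-fold lower) in p53-/- MEFs. In WT MEFs, 31 of 17513 genes had a lower ratio. A fall of at least 8-fold was seen for 100 of 16513 genes in WT, for 14 in p53-/- MEFs and for 7 in both genotypes. These 7 were Angptl6, Cacna1c, Cpa6, Igfbp5, Npas4, Trib3 and a transcript listed as ENSMUST00000110229. Trib3 encodes a pseudokinase that binds AKT and is among the signalling genes described further on.

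Igfbp4, known as a mainly inhibitory binding protein that the protease PAPP-A cleaves, fell about as much in one genotype as in the other. The probe, at chr11:98913334-98913393 on the plus strand (mm9), had signals of 2166, 559.6, 1715 and 723.8 in untreated WT, treated WT, untreated p53-/- and treated p53-/- MEFs. The log2 ratio was -1.76 (3.39-fold lower) in WT and -1.61 (3.05-fold lower) in p53-/- MEFs. In WT MEFs 574 of 17513 genes were lower and in p53-/- MEFs 358 of 16950. After scaling, both treated arrays were within 0.04 of each other on the log2 scale, less than 2 SDs of repeat spots.

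Igfbp2, a binding protein that also contacts integrins, was the member furthest apart between the treated genotypes. Its brighter probe, at chr1:72898813-72898872 on the plus strand (mm9), had signals of 35381 in untreated WT, 60971 in treated WT, 18982 in untreated p53-/- and 25343 in treated p53-/- MEFs. Both WT arrays were above both p53-/- arrays, and after scaling the p53-/- arrays were within 0.05 of each other. The log2 ratio with doxorubicin was 0.98 (1.97-fold) in WT MEFs and 0.05 in p53-/- MEFs, where it was -0.24 with array medians. The other probe, at chr1:72898677-72898736, had signals of 29536, 52294, 16068 and 21833 and log2 ratios of 1.01 and 0.08. The 2 probes of Igfbp2 thus stood just on either side of 2-fold in WT MEFs and differed by no more than 0.04. With doxorubicin, p53-/- MEFs were 3.20-fold below WT MEFs (log2 ratio of -1.68), and without it 1.69-fold (-0.76).

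Igfbp2 and Igfbp5 are neighbors on chromosome 1, transcribed toward each other, and 5956 bases lay between their nearest probes. Their doxorubicin ratios had opposite signs in WT MEFs (0.98 and -3.77). On its other side Igfbp2 has the ribosomal protein gene Rpl37a, whose log2 ratios were 0.04 (WT) and -0.20 (p53-/-). Igfbp4 lies next to Top2a, which encodes the topoisomerase that doxorubicin poisons, and Top2a stood at -4.47 in WT and at 0.40 in p53-/- MEFs, unlike Igfbp4, which was lower in both.

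Igfbp6, a binding protein that prefers IGF2 to IGF1, rose in p53-/- MEFs and had the largest difference between genotypes in its doxorubicin ratio. The probe, at chr15:101979852-101979911 on the plus strand (mm9), had signals of 34267 in untreated WT, 32899 in treated WT, 16853 in untreated p53-/- and 72863 in treated p53-/- MEFs. The p53-/- arrays were thus the lowest and the highest, with the WT arrays between them and within 0.13 of each other after scaling. The log2 ratio was 1.75 (3.36-fold) in p53-/- MEFs, exceeded by 502 of 16950 genes. It was 0.13 in WT MEFs and -0.14 there with array medians. Untreated p53-/- MEFs were 1.84-fold below untreated WT MEFs (-0.88), and treated p53-/- MEFs 1.66-fold above treated WT MEFs (0.73).

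Igfbp3 and Igfbp7 did not reach 2-fold in any comparison with the 75th percentile. Igfbp3, the main carrier of IGFs in blood, had signals of 14074, 8703, 8265 and 7237 at its probe, chr11:7106594-7106653 on the minus strand (mm9). Its log2 ratio with doxorubicin was -0.50 in WT and -0.56 in p53-/- MEFs, so untreated WT MEFs were the highest and treated p53-/- MEFs the lowest, with the arrays between them within 0.12 of each other. Igfbp7, a secreted protein with low affinity for IGFs, was dim, with signals of 358.6, 255.9, 170.5 and 177.0 at chr5:77778271-77778330 on the minus strand (mm9). The 170.5 of untreated p53-/- MEFs was less than the brightest negative control spot there (250.1), though the scanner program called it well above background. The log2 ratios of Igfbp7 with doxorubicin were -0.30 and -0.31, and those of p53-/- over WT -0.93 without and -0.95 with doxorubicin, the former with an error-model SD of 0.24. With doxorubicin, the ratio of p53-/- over WT passed 2-fold with array medians (-1.02) and with quantile normalization (-1.08).

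**Figure D3:**
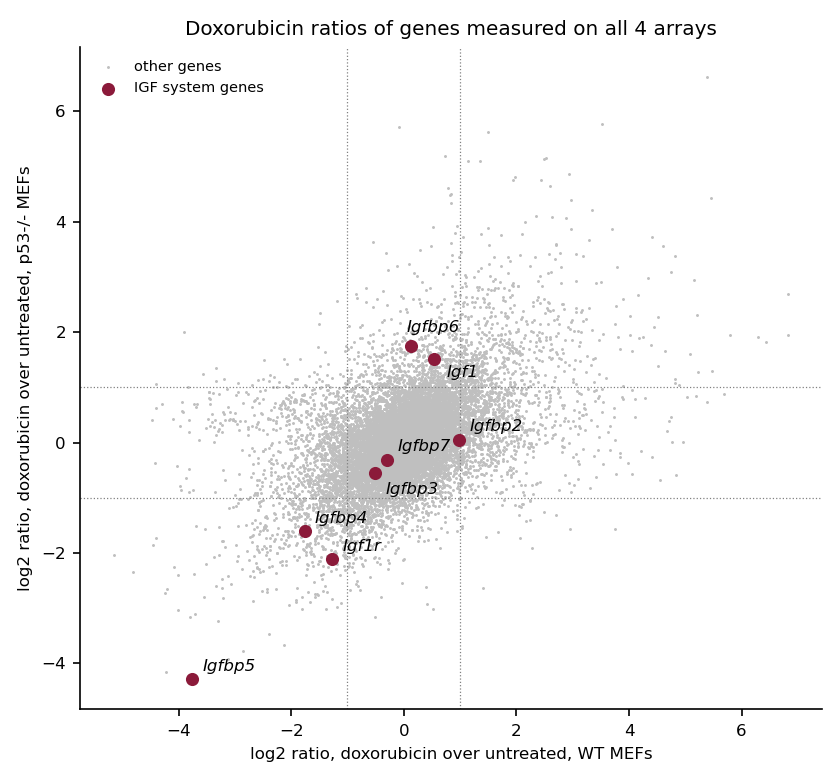
Log2 ratio of doxorubicin over untreated in WT MEFs (x axis) against p53-/- MEFs (y axis) for the 16513 genes well above background on all 4 arrays, with the IGF system genes in red and dotted lines at 2-fold. Igfbp5 lies at the lower edge (-3.77 and -4.28), and Igf1r and Igfbp4 lie beyond 2-fold in both genotypes. Igfbp6 and, at its brightest probe, Igf1 lie beyond 2-fold in p53-/- MEFs. With array medians Igfbp6 in WT (0.13) and Igfbp2 in p53-/- MEFs (0.05) turn negative.

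The genotypes were also compared directly. Without doxorubicin, 7 of the 8 genes were at a lower value in p53-/- MEFs (median log2 ratio over WT of -0.64), but 0 of 8 were 2-fold higher and 0 of 8 were 2-fold lower. Over all 17286 genes, 2.15% were 2-fold higher and 2.61% lower, and the median was 0.00. The gene with a higher value was Igfbp5 (0.33). Igf1 counted as lower by its brightest probe (-0.65), and its other probes gave -0.68, -0.73, -0.16 and 0.21. Igfbp7 counted as lower with a signal of 170.5 in untreated p53-/- MEFs, below the brightest negative control spot there (250.1). With doxorubicin, 0 of 8 genes were 2-fold higher in p53-/- MEFs, against 11.9% of 17888 genes, and 2 of 8, Igf1r and Igfbp2, were 2-fold lower, against 10.3%. Igfbp7 made this 3 of 8 with array medians or quantile normalization. The genotype ratios share arrays with the doxorubicin ratios and add no independent measurement.

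The difference between the doxorubicin log2 ratios, WT minus p53-/-, was -1.62 for Igfbp6 (error-model SD of 0.29) and -0.99 for Igf1 at its brightest probe. The other Igf1 probes gave -1.05 (the overlapping probe), -0.63, -0.16 and 0.06, and the mean of its probes gave -0.55. It was 0.92 for Igfbp2 and 0.84 for Igf1r. It was 0.52 for Igfbp5, -0.15 for Igfbp4, 0.05 for Igfbp3 and 0.01 for Igfbp7, each within 2 SDs of the error model. A difference of at least 2-fold in favor of WT MEFs was seen for 0 of 8 genes, against 8.38% of 16513, and in favor of p53-/- MEFs for 1 of 8, Igfbp6, against 9.83%. The 8 genes had a median difference of 0.03, and all genes 0.01.

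The 3 genes with the 4-array profile most like each member were found by Euclidean distance over the centred log2 values of 16513 genes. For Igf1 they were Gsg1, ENSMUST00000064735 and Ripk3, at distances of 0.09 to 0.10. For Igf1r they were Fam172a, Zfhx4 and Zfr2 (0.16 to 0.17), and for Igfbp2 Ikbip, ENSMUST00000118576 and Smox (0.09 to 0.14). Igfbp3 was most like Kif1a, Enho and Zdhhc24 (0.05 to 0.07), Igfbp4 most like Ank, Msi2 and Rgl1 (0.06 to 0.12), and Igfbp7 most like Lims2, Cpt2 and Mlycd (0.05 to 0.09). Lrrn3, Mturn and Znfx1 were nearest to Igfbp6 (0.07 to 0.20). Igfbp5 had no close profile: its nearest genes, ENSMUST00000110229, Angptl6 and Cacna1c, were at 0.56 to 0.81. Among the members, Igf1, at its brightest probe, and Igfbp6 were nearest to each other, at 0.34, with 57 genes nearer to Igf1. Igfbp3 and Igfbp7 were at 0.36 with 424 genes nearer to Igfbp3, and Igf1r and Igfbp4 at 0.85 with 374 genes nearer to Igf1r. Profiles of 4 arrays are short, and many genes lie close to any of them by this measure.

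The 250 bases before the start of transcription are shown from RefSeq (GRCm38.p6), 5′ to 3′ on the strand of the gene. The members that fell in both genotypes come first. Those that rose in p53-/- MEFs follow, with Igf1 past 2-fold only at its overlapping probes. Capitals mark matches to the TATA box letters TATAAA or the GC box letters GGGCGG on either strand, which do not overlap each other.
Igf1r, chr7:67952007-67952256, + strand: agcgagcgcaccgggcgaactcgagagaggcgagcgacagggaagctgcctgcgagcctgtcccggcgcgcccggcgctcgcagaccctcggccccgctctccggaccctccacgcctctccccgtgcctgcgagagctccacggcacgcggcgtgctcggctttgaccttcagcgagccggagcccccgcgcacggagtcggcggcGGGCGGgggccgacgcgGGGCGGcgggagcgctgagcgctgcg
Igfbp4, chr11:99040994-99041243, + strand: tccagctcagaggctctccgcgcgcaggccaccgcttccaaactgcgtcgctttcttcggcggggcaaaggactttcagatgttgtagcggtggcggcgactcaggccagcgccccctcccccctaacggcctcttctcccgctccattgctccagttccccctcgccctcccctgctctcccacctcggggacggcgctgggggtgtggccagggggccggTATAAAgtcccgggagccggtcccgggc
Igfbp5, chr1:72874866-72875115, - strand: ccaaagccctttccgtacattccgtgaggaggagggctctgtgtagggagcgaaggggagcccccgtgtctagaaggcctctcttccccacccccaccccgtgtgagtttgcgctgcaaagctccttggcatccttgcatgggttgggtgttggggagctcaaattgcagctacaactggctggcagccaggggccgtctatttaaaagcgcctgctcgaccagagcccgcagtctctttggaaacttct
Igf1, chr10:87860861-87861110, + strand: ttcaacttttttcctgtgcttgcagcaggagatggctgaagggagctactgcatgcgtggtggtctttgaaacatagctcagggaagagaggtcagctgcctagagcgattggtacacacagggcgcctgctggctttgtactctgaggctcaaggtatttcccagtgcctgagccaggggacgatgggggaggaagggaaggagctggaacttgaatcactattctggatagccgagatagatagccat
Igfbp6, chr15:102143936-102144185, + strand: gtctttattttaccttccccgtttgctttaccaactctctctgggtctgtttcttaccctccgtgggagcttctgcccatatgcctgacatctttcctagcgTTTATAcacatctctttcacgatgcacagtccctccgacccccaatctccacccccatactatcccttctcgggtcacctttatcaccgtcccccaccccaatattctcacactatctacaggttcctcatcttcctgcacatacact

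The Igf1r window held GGGCGG 43 and 26 bases before the start and was 77.6% G and C, more than 97.6% of all windows. Igfbp4 held TATAAA 28 bases before the start, Igfbp6 held its reverse complement at 148, and Igf1 and Igfbp5 held neither motif. CCAAT, also sought, was found in Igf1 at 142 and in Igfbp6, where the nearer match lay at 50. Of the 32851 windows of this length in the RefSeq table, 12.4% held TATAAA, 32.7% GGGCGG and 33.8% CCAAT. The p53 half-site was found in 0 of 9 windows of the 8 genes, since Igfbp2 has 2, and in 7.13% of all windows. These are letters in a short window, with no binding measured. Of the motifs sought, the genes that fell in both genotypes had none in common.

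Lists of the rest of the pathway were counted in the same way. Of 9 other ligands, receptors and carriers, 5 were measured on all 4 arrays. Of these, 1 rose and 1 fell in WT MEFs, against 11.0% and 10.4% of all genes. In p53-/- MEFs, 0 rose and 2 fell, against 9.24% and 6.89%. Igf2r (-0.68 in WT and -0.81 in p53-/- MEFs) and Ins2 (0.28 and -0.22) stayed under 2-fold. Igf2, the other ligand, had signals of 11657, 10339, 16927 and 10167 (log2 ratios of 0.02 for WT and -1.10 for p53-/- MEFs), so untreated p53-/- MEFs stood above the other conditions. The insulin receptor gene Insr, a close relative of Igf1r, had signals of 642.2, 208.1, 467.8 and 161.3 and log2 ratios of -1.44 and -1.90. Like Igf1r, it fell in both genotypes. Insrr, the insulin receptor-related receptor, had signals of 196.5, 506.9, 132.2 and 271.3, with log2 ratios of 1.56 and 0.67, and the 132.2 of untreated p53-/- MEFs was less than that array's brightest negative control spot. The remaining binding protein Igfbp1 was above background only in treated p53-/- MEFs, at 124.8, close to the brightest negative control spot there (119.7). The serum carrier Igfals was above background on no array.

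Among 17 proteases that cleave IGFBPs or their inhibitors, 3 rose and 4 fell of 14 measured in WT MEFs, against 11.0% and 10.4% of all genes. In p53-/- MEFs, 1 rose and 3 fell of 15, against 9.24% and 6.89%. The median log2 ratios were -0.12 and -0.15. Pappa, whose product cleaves IGFBP4, had signals of 8032, 3396, 2989 and 1350 and log2 ratios of -1.05 (WT) and -1.51 (p53-/-). Pappa thus fell in both genotypes, as Igfbp4 did, and without doxorubicin it was lower in p53-/- than in WT MEFs (log2 ratio of -1.28). The matrix metalloproteinase gene Mmp2 had log2 ratios of 0.23 and -1.59, Mmp3 1.38 and 1.89, Adamts1 -1.28 and -0.51, and the cathepsin D gene Ctsd 1.51 and 0.25. For Mmp2 the value in WT MEFs turned to -0.05 with array medians.

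Of 41 genes of IGF1R signalling (adaptors, PI3K, AKT and feedback), 2 rose and 6 fell of 40 measured in WT MEFs, against 11.0% and 10.4% of all genes. In p53-/- MEFs, 2 rose and 4 fell of 39, against 9.24% and 6.89%. Medians were -0.24 and -0.13. Trib3 had signals of 37871, 2072, 18394 and 2898 and log2 ratios of -4.00 and -3.03. Grb10, an adaptor that dampens the receptor, had -1.08 in WT against -1.91 in p53-/- MEFs, and the related Grb14 -1.82 and -0.21. The feedback inhibitor Socs3 had -1.93 and -0.27, and the small GTPase gene Hras 2.0 and 0.32. In this list Trib3 and Grb10 fell in both genotypes, while Grb14, Socs3 and Hras passed 2-fold in WT MEFs and not in p53-/- MEFs, a difference that was not tested.

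Of 21 AKT targets around mTOR, GSK3 and FOXO, 2 rose and 0 fell of 19 in WT MEFs, against 11.0% and 10.4% of all genes. In p53-/- MEFs, 0 rose and 2 fell, against 9.24% and 6.89%. Medians were 0.13 (WT) and -0.02 (p53-/-). Those that rose were Foxo6, a forkhead factor (3.67 in WT, 0.31 in p53-/- MEFs), and Mdm2, an AKT substrate and p53 target (2.0 and 0.47). Those that fell were Gsk3b (-0.49 and -1.41) and Rptor, a subunit of mTOR complex 1 (-0.33 and -1.05). The 3 IGF2 mRNA binding protein genes stayed under 2-fold in both genotypes, with medians of -0.56 and -0.77. Of 6 genes of the growth hormone axis that drives Igf1 in liver, 0 rose and 1 fell in WT MEFs, against 11.0% and 10.4% of all genes. In p53-/- MEFs, 1 rose and 1 fell, against 9.24% and 6.89%. Medians of this list were -0.82 (WT) and 0.16 (p53-/-). The receptor gene Ghr had log2 ratios of -0.96 and -1.61, though its other probe gave -0.73 and -0.58. Stat5a, a transcription factor of this axis, had -1.90 and 0.18, and its feedback inhibitor Cish 0.82 and 1.26. The value of Stat5a in p53-/- MEFs turned to -0.11 with array medians.

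**Figure D4:**
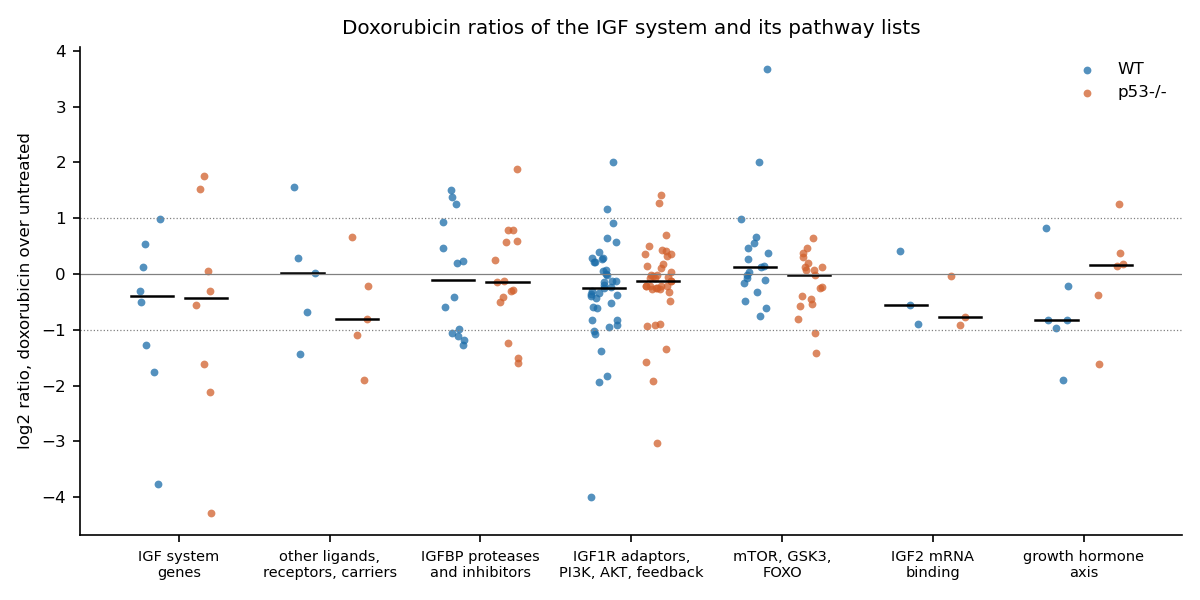
Log2 ratio of doxorubicin over untreated for each measured gene of the IGF system and of 6 pathway lists, in WT (blue) and p53-/- (orange) MEFs; black bars are medians and dotted lines mark 2-fold. The lowest point of the IGF system is Igfbp5 (-3.77 and -4.28), and that of the signalling list is Trib3 (-4.00 and -3.03).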

How the data were processed

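The authors labeled total RNA (200 ng per sample) with Cy3 and hybridized it to Agilent mouse arrays on 1 slide, 1 array per condition. Background and spatial trends had been removed from the deposited spot intensity by Agilent Feature Extraction (10.7.3.1, protocol GE1_107_Sep09), and arrays were not scaled to each other. The deposited mean and local background intensity served 1 alternative, and the deposited flags mark spots above background, saturated or outlying.

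Outlier spots were left out (145 to 168 of 43020 per array, with 0 saturated), repeat spots were averaged on the log2 scale, and each array was set relative to its 75th percentile. 8 further probes had no value left. The probe with the highest mean stood for a gene. A ratio needed a call of well above background on both arrays (56.9 to 62.9% of probes), and 2-fold was the limit for a call. The number of arrays limits the precision. RefSeq (GRCm38.p6) named 30173 probes, and 9248 kept the name in the files. Positions of probes follow the files (mm9), with no annotation of exons or UTRs used. Motifs were sought on both strands of the 250 bases before RefSeq starts.

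All members were named, from each pathway list at most the 5 genes furthest apart by doxorubicin among those past 2-fold, and for each member the 3 nearest profiles. The members and lists were chosen with earlier results of these data known. Python 3.11.15 (numpy 2.4.6, pandas 2.3.3, matplotlib 3.10.9) and R 4.3.3 with limma 3.58.1 (normexp, offset 50) were used. The steps were tested on simulated arrays.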

Additional observations from a re-analysis of the deposited data

Results flagged for a closer look

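Of 28 named genes looked at, 2 moved in opposite directions in the genotypes by more than 0.17 on the log2 scale, which is 2 SDs of a repeat-spot ratio. For Mmp2, the doxorubicin log2 ratio was 0.23 in WT and -1.59 in p53-/- MEFs, a difference of 1.81, and it was negative in both with array medians (-0.05 and -1.88). For Stat5a, the log2 ratio was -1.90 in WT and 0.18 in p53-/- MEFs, a difference of -2.09, and it was negative in both with array medians (-2.18 and -0.11). With 1 array per condition, neither difference was tested. The share of all genes that moved in opposite directions by this rule was not counted, so 2 of 28 cannot be called many or few. The genes named from the pathway lists had also been picked for passing 2-fold in these data.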

How the results depend on the processing

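Alternatives were array medians, quantile normalization, normexp, no filter on dim probes, a filter on all 4 arrays, all probes of a gene averaged, the deposited table and thresholds of 1.5-fold and 3-fold. The count of members past 2-fold stayed within 1.5 times in both doxorubicin comparisons (3 in WT, range 2 to 4, and 5 in p53-/- MEFs, range 4 to 5). At 1.5-fold, the count was 5 between untreated genotypes (0 at 2-fold), 5 between treated genotypes (2 at 2-fold) and 4 for the difference of ratios (1 at 2-fold). At 3-fold, 1 gene was called between treated genotypes. With the limit kept at 2-fold, array medians and quantile normalization each gave 3 there, since Igfbp7 moved from -0.95 to -1.02 and -1.08. For the difference of ratios, quantile normalization gave 2 and normexp gave 2, since Igf1 moved from -0.99 to -1.01 at its brightest probe. Of all genes, 10.1% and 7.85% were then past 2-fold in favor of p53-/- MEFs. Of 280 recomputed values of single members, 247 moved by less than the spread of repeat spots and 33 by more, and 0 called values changed sign. Many of the 247 could not have moved. All members were well above background on all 4 arrays, so the filters changed no value, and the deposited table held the same intensities. Averaging probes could change only Igf1 and Igfbp2, which have more than 1 probe. The value below 2-fold turned negative with array medians for Igfbp6 in WT and Igfbp2 in p53-/- MEFs. The mean of its probes lowered Igf1 in p53-/- MEFs from 1.52 to 0.64.

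No paired analysis was possible because each condition had 1 array, so the groups share only 1 number. No array was left out for the same reason, and with 1 slide a slide block was not run. Background limits signals near the brightest negative control, such as those of Igfbp7.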

Other observations

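Other neighbors of the members in RefSeq order had their own values. Igfbp6 lies between Spryd3 (log2 ratios with doxorubicin of -0.22 in WT and -1.0 in p53-/- MEFs) and Soat2 (-2.39 and -2.11), both with signs unlike the 1.75 of Igfbp6 in p53-/- MEFs. Synm, next to Igf1r, had 2.43 in WT and 0.33 in p53-/- MEFs, where Igf1r had -1.27 and -2.11. Tns3, next to Igfbp3, had -0.14 and -1.02, and Polr2b, next to Igfbp7, 0.06 and 0.12.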
